A study of Homo sapiens with 8 samples.

Results

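The genes described here make melanin and build the melanosome, the organelle of pigment cells in which melanin is laid down. They are TYR, TYRP1, DCT, PMEL, MLANA, OCA2, SLC45A2, SLC24A5, GPR143 and MC1R. Members were all probe sets of the deposited array table whose only gene symbol in the platform annotation is one of these 10 symbols. The rule found 9 genes of the 18244 with such a probe set, through 14 of 49495 probe sets, and DCT is not analysed here. The cells were SK-MEL-5, an established human melanoma line, measured on 8 Affymetrix arrays. Cells given THZ1, which binds covalently to the kinase CDK7, at 250 nM in 25 µM DMSO for 6 h were compared with cells given 25 µM DMSO, with 2 arrays each. The other 2 groups, also of 2 arrays, compared an siRNA against MITF (siMITF) with a non-targeting control siRNA (siCtrl). By its title, the study asks whether CDK7 inhibition depletes genes of the melanocyte lineage. How long DMSO was applied, and when transfected cells were harvested, is not stated in the labels. All arrays come from 1 cell line. Nothing in the labels says that arrays of one group are separate cultures, and the p-values reflect the spread between these arrays alone.

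Melanin is made from tyrosine. TYR, tyrosinase, catalyses the first and rate-limiting oxidation, and TYRP1 and DCT act on later intermediates of the pathway. PMEL forms the amyloid fibrils on which melanin is deposited, and MLANA is a small membrane protein of early melanosomes. OCA2, SLC45A2 and SLC24A5 are membrane proteins that set the ion content and pH in which tyrosinase works, and loss of any of them causes or modifies pigment loss in people. GPR143 is a receptor-like protein of the melanosome membrane, and MC1R is the cell-surface melanocortin receptor that raises cyclic AMP. MITF, the lineage transcription factor, binds the M-box, an E-box in the promoters of tyrosinase family genes.

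The promoters of the 4 measured members that hold the 7-base M-box core are shown, because the M-box is the sequence that MITF, the siRNA target, is known to bind. RefSeq promoters (GRCh38.p14, 250 bases before to 50 after the annotated start) were given for 7 of the 9 measured genes; PMEL and SLC45A2 are named only. The motifs searched, on both strands, were TCATGTG (the M-box core), CATGTG (which lies within it) and CACGTG. The 7-base core was found in 4 of the 7 promoters (GPR143, SLC24A5, TYR and TYRP1), against 2.92% of 35116 promoters of the same length. CATGTG was found in 6 of the 7, in OCA2 and MC1R without the preceding base, against 11.1% of all. MLANA held neither in this window, and CACGTG was in 0 of the 7, against 7.26% of all. Capitals mark every CATGTG or TCATGTG match, and they are the reverse complement where the motif lies on the opposite strand. The windows are chrX:9765798-9766097 (minus strand) for GPR143, chr15:48120740-48121039 (plus) for SLC24A5, chr11:89177625-89177924 (plus) for TYR and chr9:12693135-12693434 (plus) for TYRP1.
GPR143: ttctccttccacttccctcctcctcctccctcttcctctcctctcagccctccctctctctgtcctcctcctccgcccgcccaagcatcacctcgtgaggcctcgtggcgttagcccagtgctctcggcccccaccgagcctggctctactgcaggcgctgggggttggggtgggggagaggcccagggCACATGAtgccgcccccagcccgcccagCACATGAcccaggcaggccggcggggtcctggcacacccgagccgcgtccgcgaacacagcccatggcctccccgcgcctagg
SLC24A5: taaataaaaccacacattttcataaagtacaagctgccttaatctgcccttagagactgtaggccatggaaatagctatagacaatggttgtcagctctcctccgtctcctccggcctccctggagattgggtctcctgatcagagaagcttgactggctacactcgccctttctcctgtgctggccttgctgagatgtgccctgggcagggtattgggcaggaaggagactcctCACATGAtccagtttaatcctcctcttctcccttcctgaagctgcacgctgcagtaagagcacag
TYR: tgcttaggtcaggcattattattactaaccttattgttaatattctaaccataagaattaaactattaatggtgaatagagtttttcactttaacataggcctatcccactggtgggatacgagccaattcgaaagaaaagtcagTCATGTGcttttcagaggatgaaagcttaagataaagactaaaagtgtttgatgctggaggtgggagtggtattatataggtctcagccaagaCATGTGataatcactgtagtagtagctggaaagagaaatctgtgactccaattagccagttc
TYRP1: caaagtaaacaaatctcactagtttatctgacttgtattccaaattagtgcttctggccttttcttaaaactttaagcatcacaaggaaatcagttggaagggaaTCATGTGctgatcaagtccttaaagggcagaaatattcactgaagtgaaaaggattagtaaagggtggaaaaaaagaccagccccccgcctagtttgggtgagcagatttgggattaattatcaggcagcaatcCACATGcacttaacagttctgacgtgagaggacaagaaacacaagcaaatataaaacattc

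Counted from the annotated start, the 2 M-box cores of GPR143 began at -61 and -33, both on the opposite strand, and that of SLC24A5 at -15, also on the opposite strand. In TYR the core began at -105, with a CATGTG at -12. In TYRP1 the core began at -145, with a CATGTG on the opposite strand at -11. A match is a description of the letters and not evidence of binding. The M-box was already known from tyrosinase family promoters, so matches in TYR and TYRP1 are no test, and the shares given above are descriptive.

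**Figure D1:**
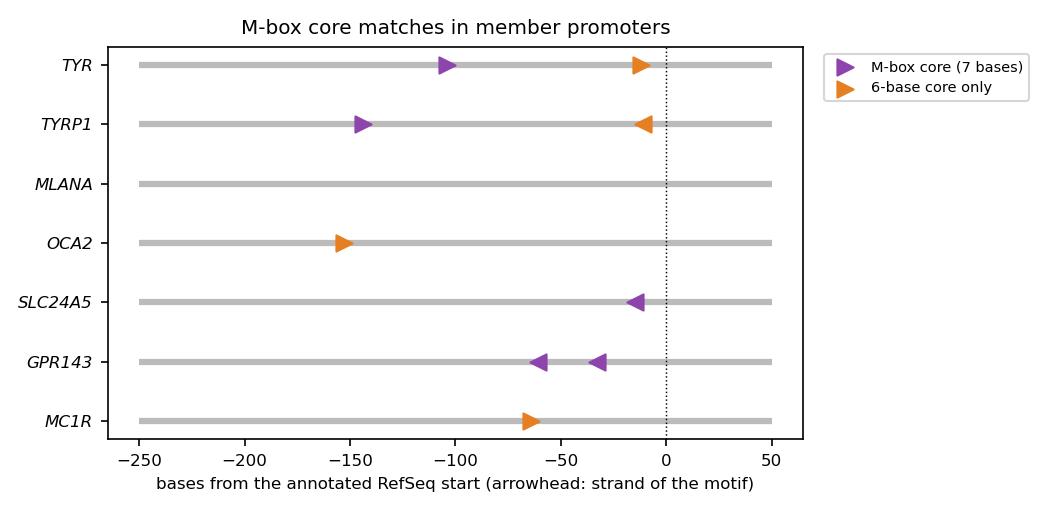
Positions of M-box core matches in the 7 member promoters, in bases from the annotated RefSeq start (dotted line at the start), with arrowheads giving the strand. GPR143 holds 2 matches of the 7-base core, SLC24A5, TYR and TYRP1 hold 1 each, and MLANA holds none.

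The deposited values are MAS5 signals on a linear scale, which the series describes as normalized to cell number by an unrecorded calculation. The median signal of all probe sets was 51.1 and 67.6 on the THZ1 arrays and 61.3 and 76.1 on the DMSO arrays, and 40.1 and 32.5 with siMITF and 51.1 and 59.3 with siCtrl. Each gene was read from its brightest probe set, signals were analysed as log2(value + 16), and 11947 genes with a mean signal of at least 39.2 were tested. All 14 member probe sets lay above this threshold. The median tested gene changed by -0.16 on the log2 scale with THZ1 and by -0.63 with siMITF. Changes are therefore given both on the deposited scale and on a centred scale, which subtracts from each array the median departure of its tested genes from their means, so that a change there is one relative to the median gene. On the deposited scale all genes shared 1 SE, so a limma p given there does not rest on the gene's own spread and can be too small. With a separate variance for each gene, 0 of the 11947 genes passed there in either comparison. In bulk RNA, a transcript made by fewer of the cells and one at a lower level in each cell cannot be told apart. The siRNA target checked the labels: MITF had a signal of 1747 and 1168 with siMITF, against 3436 and 3936 with siCtrl. It fell by 0.72 on the centred scale (SE 0.10, limma adjusted p = 3.25e-04, n = 2 per group). Among markers of other cell types over the 8 arrays, KRT5 and KRT14 of keratinocytes had signals of 17.8 to 57.9, COL1A1 of fibroblasts 23.0 to 46.2 and PTPRC of leukocytes 8.16 to 31.3. Other genes of those lists were brighter, with 257 to 755 for KRT10, 45.2 to 285 for DCN, 77.2 to 191 for CD68 and 23.1 to 234 for HLA-DRA. LUM, a fibroblast gene, had 613 to 2983, and S100B, a marker of melanocytic and Schwann cells, 1383 to 4106.

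TYR had signals of 3969 and 3090 with siMITF, against 3758 and 4756 with siCtrl. The groups overlapped, and the log2 change on the deposited scale was -0.27 (SE 0.25, limma adjusted p = 0.300). TYR was higher by 0.36 on the centred scale (SE 0.07, adjusted p = 0.00332). With THZ1 the TYR signal was 5797 and 7564, against 5771 and 6758 with DMSO. These groups also overlapped, with a change of 0.08 on the deposited scale (adjusted p = 0.973) and of 0.28 on the centred scale (adjusted p = 0.0128). Both TYR probe sets are of designs (_s_at and _x_at) that can detect related sequences, so signal from a near copy cannot be told apart from TYR.

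TYRP1, whose protein stabilises tyrosinase and in mice oxidises an intermediate of eumelanin, had 3771 and 3226 with siMITF, against 4593 and 5338 with siCtrl. Both siMITF arrays lay below both siCtrl arrays, but the change of -0.50 on the deposited scale did not pass the test (SE 0.25, adjusted p = 0.0599). It was 0.13 on the centred scale (adjusted p = 0.225). With THZ1 the signals were 5583 and 7068, on either side of 6148 and 6627 with DMSO, a change of 0.18 on the centred scale (95% interval -0.01 to 0.36).

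PMEL had 6037 and 4748 with siMITF, against 8218 and 8831 with siCtrl, without overlap. Its fall of 0.67 on the deposited scale passed the test (SE 0.25, adjusted p = 0.0141), and its centred change was -0.04 (95% interval -0.31 to 0.23). With THZ1 the PMEL signal was 9690 and 11309, against 12592 and 11874 with DMSO. Both THZ1 arrays lay below both DMSO arrays on the deposited scale, and the change of -0.22 was not called (adjusted p = 0.827). The groups overlapped on the centred scale, with a change of -0.02 (adjusted p = 0.890).

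MLANA had 3765 and 3239 with siMITF, against 5640 and 6359 with siCtrl, on its brightest probe set. This was a fall of 0.78 on the deposited scale (SE 0.25, adjusted p = 0.00475) and a change of -0.14 on the centred scale (adjusted p = 0.202). The other MLANA probe set had 1021 and 882 with siMITF, against 2420 and 3267 with siCtrl. It fell by 0.92 on the centred scale (SE 0.09, adjusted p = 5.45e-05 over probe sets). The 2 probe sets thus give different sizes for the same gene. With THZ1 the brightest MLANA probe set had 8842 and 10641, overlapping 8887 and 9688 with DMSO, and was higher by 0.26 on the centred scale (adjusted p = 0.0347).

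Among the transporters SLC45A2 had the largest change with siMITF. The signals were 540 and 416 with siMITF, against 1465 and 1734 with siCtrl. No siMITF array came near the siCtrl range, and the change was -1.72 on the deposited scale (3.28-fold lower, SE 0.25, limma adjusted p = 1.34e-09) and -1.08 on the centred scale (SE 0.07, adjusted p = 1.08e-05). With THZ1 the same probe set had 2294 and 2951, against 2248 and 2755 with DMSO. Those groups overlapped, with a change of 0.06 on the deposited scale (adjusted p = 0.982) and of 0.26 on the centred scale (adjusted p = 0.0142).

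SLC24A5, a sodium-calcium exchanger of the pigment cell, had 759 and 584 with siMITF, against 1365 and 1726 with siCtrl. It fell by 1.19 on the deposited scale (2.27-fold lower, adjusted p = 2.31e-05) and by 0.55 on the centred scale (SE 0.08, adjusted p = 6.56e-04). With THZ1 it had 1831 and 2693, overlapping 1834 and 2452 with DMSO, and it was higher by 0.27 on the centred scale (adjusted p = 0.0301).

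OCA2, which carries chloride across the melanosome membrane, differed from the other transporters. On the siMITF arrays it had 1981 and 1655, against 2401 and 2883 with siCtrl, a fall of 0.53 on the deposited scale (adjusted p = 0.0466). The centred change was 0.10 (95% interval -0.06 to 0.25, adjusted p = 0.279). With THZ1 OCA2 had 2347 and 3267, against 2865 and 3397 with DMSO, and changed by 0.03 on the centred scale (95% interval -0.13 to 0.18).

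GPR143 had 464 and 368 with siMITF, against 1097 and 1372 with siCtrl. The siMITF arrays were far below the siCtrl arrays, and GPR143 fell by 1.53 on the deposited scale (2.89-fold lower, SE 0.25, adjusted p = 5.67e-08) and by 0.90 on the centred scale (SE 0.08, adjusted p = 3.48e-05). With THZ1 it had 2726 and 3487, overlapping 2399.5 and 3300.2 with DMSO. It was higher by 0.33 on the centred scale (SE 0.08, adjusted p = 0.00835), the largest such value among the members.

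MC1R was the member that was lower with THZ1. Its signal, low among the tested genes, was 71.1 and 97.2 with THZ1, against 128 and 151 with DMSO. Both THZ1 arrays lay below both DMSO arrays, and MC1R fell by 0.44 on the centred scale (SE 0.08, limma adjusted p = 0.00263). On the deposited scale the change was -0.64 (SE 0.25, adjusted p = 0.0761), and it passed in 3 of 17 alternatives. With arrays left out it ran from -0.83 (adjusted p = 0.0187, without THZ1 replicate 2) to -0.45 (adjusted p = 0.646, without THZ1 replicate 1). MC1R had 62.4 and 56.8 with siMITF, against 83.9 and 113 with siCtrl. That fall of 0.59 on the deposited scale passed the test (adjusted p = 0.0301), and the change on the centred scale was 0.05 (95% interval -0.14 to 0.23).

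**Figure D2:**
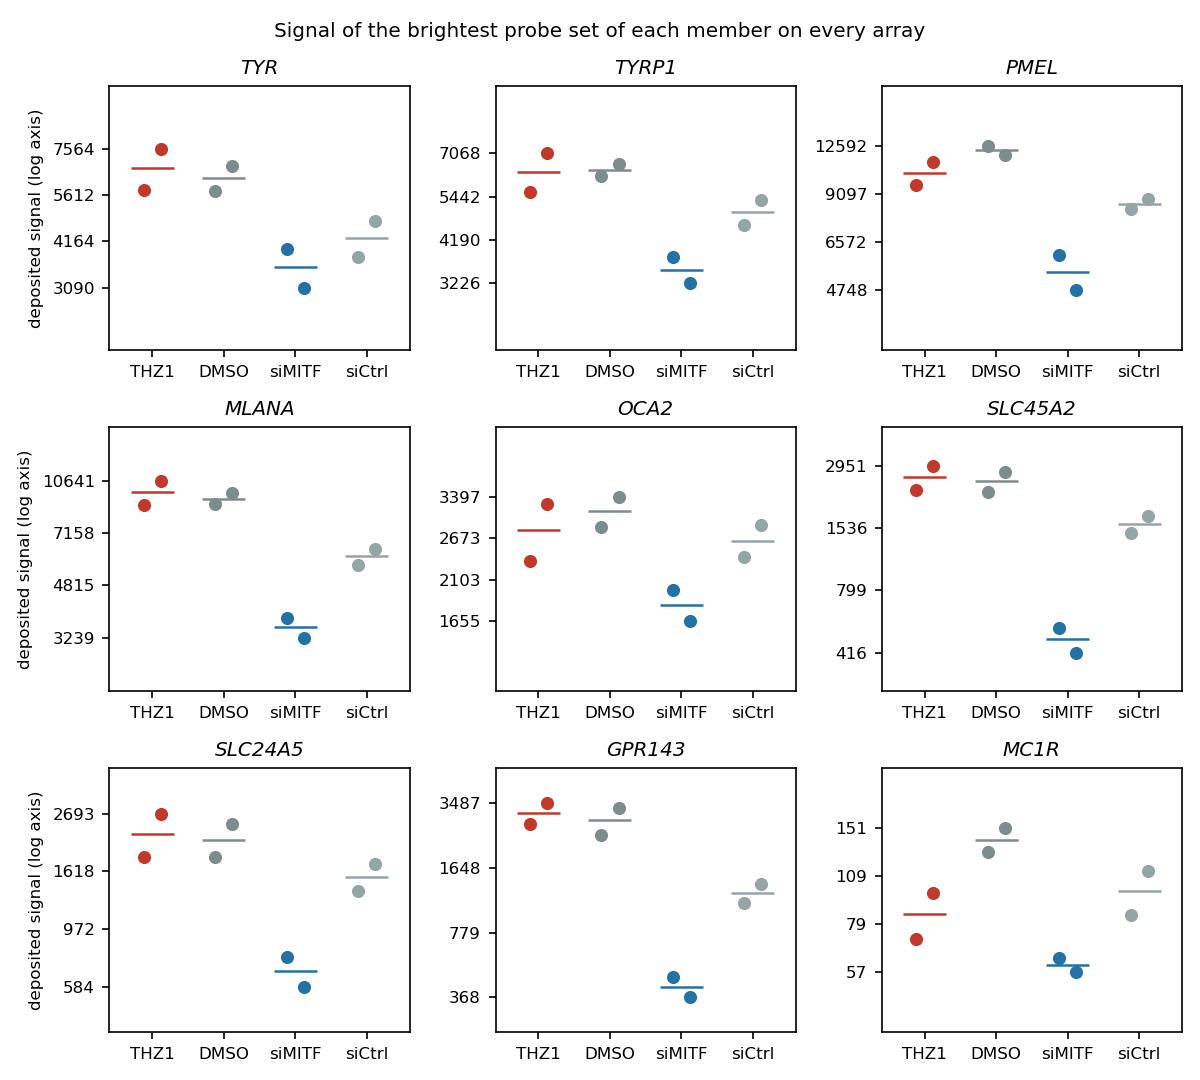
Deposited signal (log axis) of the brightest probe set of each of the 9 measured members, with 1 point per array and a line at each group's mean. The siMITF arrays lie below the siCtrl arrays for each member except TYR, and the THZ1 arrays lie below the DMSO arrays for PMEL and MC1R.

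With siMITF, 7 of the 9 members were lower and 0 higher on the deposited scale, beside 63.4% of all tested genes lower and 0.326% higher (limma, adjusted p under 0.05). The brightest probe sets of TYR and TYRP1 did not pass, but the other probe set of each did (TYR -0.64, adjusted p = 0.0163; TYRP1 -0.73, adjusted p = 0.00634, over probe sets). The siMITF arrays lay below the siCtrl arrays for 8 of 9 members and above them for 0, beside 89.0% of all genes below and 0.929% above. On the centred scale 3 members were lower (SLC45A2, GPR143 and SLC24A5), beside 24.7% of genes, and 1 was higher (TYR), beside 19.5%. Among the 1195 brightest genes, which held each member but MC1R, 40.4% were called lower and 11.9% higher, with a median change of -0.14. The members' median change was -0.67 on the deposited scale, against -0.63 over all tested genes, and -0.04 on the centred scale. As a group, then, the members changed about as much as the median gene, and individually they spanned -1.08 to 0.36. SLC45A2 lay at percentile 0.19 of all tested genes by its change, GPR143 at 0.72 and SLC24A5 at 5.83, whereas TYR lay at 89.1 and TYRP1 at 66.5. Of the 4 promoters with the M-box core shown above, those of GPR143 and SLC24A5 belong to members that fell on the centred scale, and those of TYR and TYRP1 to members that did not. On the deposited scale the prior degrees of freedom were infinite, so each gene had the same SE whatever its own spread, and its p can be too small. With a separate variance for each gene, 0 of the 11947 genes passed in limma on that scale, members included (lowest adjusted p 0.0893, 5705 genes with an unadjusted p under 0.05). On the centred scale 3 of 9 members were then lower, beside 19.0% of genes, and 1 higher, beside 11.9%. Without siCtrl replicate 2, or without siMITF replicate 2, fewer members passed on the deposited scale, and so did a smaller share of all genes.

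With THZ1, 0 of the 9 members were lower and 0 higher on the deposited scale, beside 10.0% and 0.0753% of all tested genes. With each gene's own variance 0 of all 11947 genes passed in limma, members included (lowest adjusted p 0.268, 1444 genes with an unadjusted p under 0.05). The THZ1 arrays lay below the DMSO arrays for 2 of 9 members, beside 30.0% of genes, and above them for 0, beside 0.871%. After centring, 1 member was lower (MC1R), beside 21.1% of genes. The 5 that were higher (TYR, MLANA, SLC45A2, SLC24A5 and GPR143) stand beside 17.7% of genes. The members' median change was 0.06 on the deposited scale, against -0.16 over all tested genes, and 0.26 on the centred scale. Signal strength moved with this result: each member but MC1R was among the 1195 brightest genes, where the median change was 0.23 and 53.1% of genes were called higher. Among the 1194 genes with mean signals of 86.3 to 120, which held MC1R, the median change was -0.04 and 28.8% were called lower. The part of signal strength in the members' values was not tested. With quantile normalization 0 members were higher, beside 14.0% of genes, and 2 lower (MC1R, and OCA2 with -0.19), beside 21.6%. With no threshold on signal, 0 members were higher, beside 2.61% of genes, and MC1R was lower, beside 11.5%. Without DMSO replicate 1, 2 members were higher, beside 10.5% of genes, and 1 lower, beside 16.1%. The same counts without DMSO replicate 2 stand beside 11.1% and 17.2%.

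**Figure D3:**
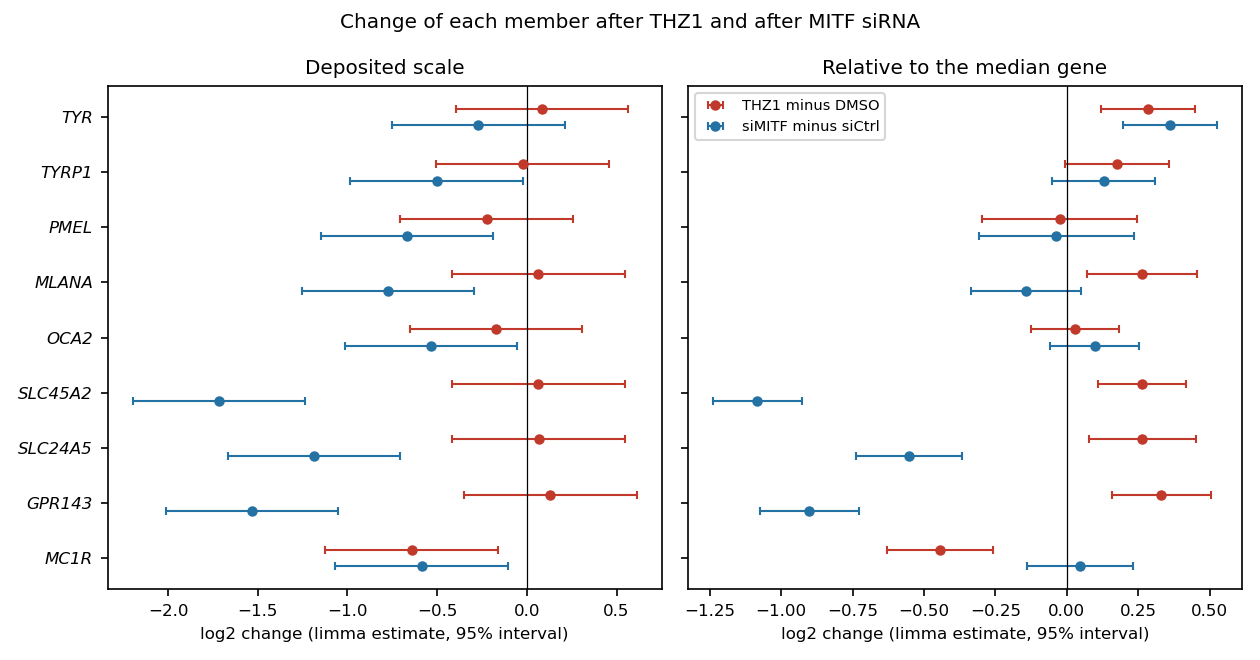
Log2 change of each measured member (limma estimate with its 95% interval, n = 2 arrays per group), on the deposited scale and on the centred scale. SLC45A2, SLC24A5 and GPR143 show the separation between siMITF (-1.08, -0.55 and -0.90 on the centred scale) and THZ1 (0.26, 0.27 and 0.33), and MC1R the opposite order.

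The THZ1 and siMITF changes, which share no arrays, were set against each other in the same fit. On the deposited scale the THZ1 change exceeded the siMITF change for 3 of 9 members (SLC45A2, GPR143 and SLC24A5), beside 9.84% of all tested genes, and fell below it for 0, beside 0.946%. After centring it was higher for 4 members, beside 21.4% of genes, and lower for 1, beside 20.2%. SLC45A2 differed by 1.35 (SE 0.10, adjusted p = 1.95e-05) and GPR143 by 1.23 (SE 0.11, adjusted p = 4.83e-05). SLC24A5 differed by 0.82 (adjusted p = 5.53e-04) and MLANA by 0.41 (adjusted p = 0.0219). MC1R differed by -0.49 (SE 0.12, adjusted p = 0.00800), since it was lower on the centred scale with THZ1 and not with siMITF. For TYR, TYRP1, PMEL and OCA2 the differences ran from -0.08 to 0.05 with SEs of 0.10 to 0.17, and did not pass the test. With each gene's own variance 0 of all 11947 differences passed in limma on the deposited scale, members included (lowest adjusted p 0.357, 1508 with an unadjusted p under 0.05).

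**Figure D4:**
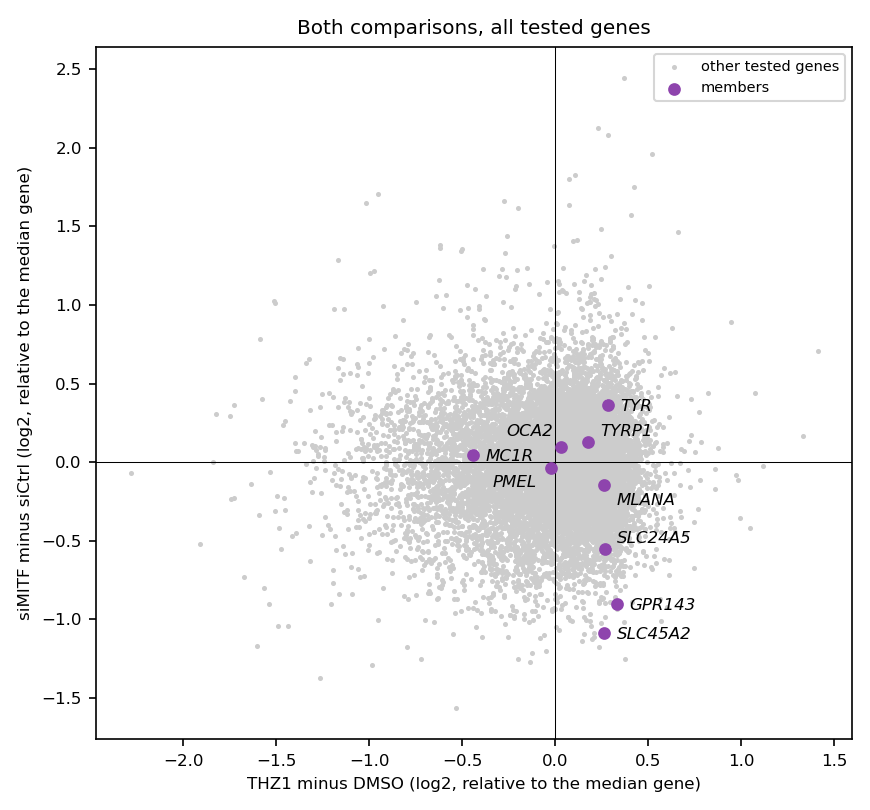
Log2 change on the centred scale with THZ1 (horizontal) and with siMITF (vertical) for all 11947 tested genes, with the 9 measured members labelled. SLC45A2, GPR143 and SLC24A5 lie at the lower right, TYR at the upper right and MC1R at the left.

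TYR, TYRP1, MLANA and SLC45A2 each had several probe sets, 9 in all, which did not give 1 answer per gene. The other TYR probe set had 1344 and 985 with siMITF, against 1732 and 1866 with siCtrl. It fell by 0.64 on the deposited scale (adjusted p = 0.0163 over probe sets), and its centred change was -0.0041 (SE 0.10), where the brightest had -0.27 and 0.36. The other TYRP1 probe set had 2289 and 1808 with siMITF, against 3098.6 and 3684.5 with siCtrl. It changed by -0.10 on the centred scale, where the brightest had 0.13. The other 2 SLC45A2 probe sets fell by 1.12 and 1.43 on the centred scale, in the same direction as the 1.08 of the brightest. Fitted over 27167 probe sets on the deposited scale, 12 of the 14 member probe sets were lower with siMITF, beside 65.1% of all probe sets, and 0 higher, beside 0.294%. After centring, 6 of the 14 member probe sets were lower with siMITF, beside 25.0% of all probe sets, and 1 was higher, beside 18.5%. With THZ1, 1 was lower, beside 16.9%, and 6 were higher, beside 18.4%.

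The ratio of 2 bright probe sets on the same array, taken here between values + 16, depends little on how arrays are scaled. For MLANA the log2 ratio of the brightest to the other probe set stood at 1.87 and 1.86 with siMITF, against 1.22 and 0.96 with siCtrl. The siMITF ratios were higher, by 0.78 in the mean. With THZ1 the ratios were 1.19 and 1.19, within the 1.22 and 1.03 of DMSO. For TYR the ratio of the brightest to the other probe set stood at 1.55 and 1.63 with siMITF, against 1.11 and 1.34 with siCtrl, and 1.32 and 1.40 with THZ1, against 1.01 and 1.15 with DMSO. Each exact two-sided permutation p for the siMITF ratios of MLANA and TYR was 0.333, the smallest that 2 arrays against 2 allow. In each of the 4 genes the brightest probe set had the highest change with siMITF, which held for 31.0% of the 7128 genes with several tested probe sets. With THZ1 the brightest had the highest change in 3 of the 4, beside 27.7% of those genes. From the number of probe sets per gene alone, 37.1% of those genes would be expected in either comparison. The cause was not tested.

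**Figure D5:**
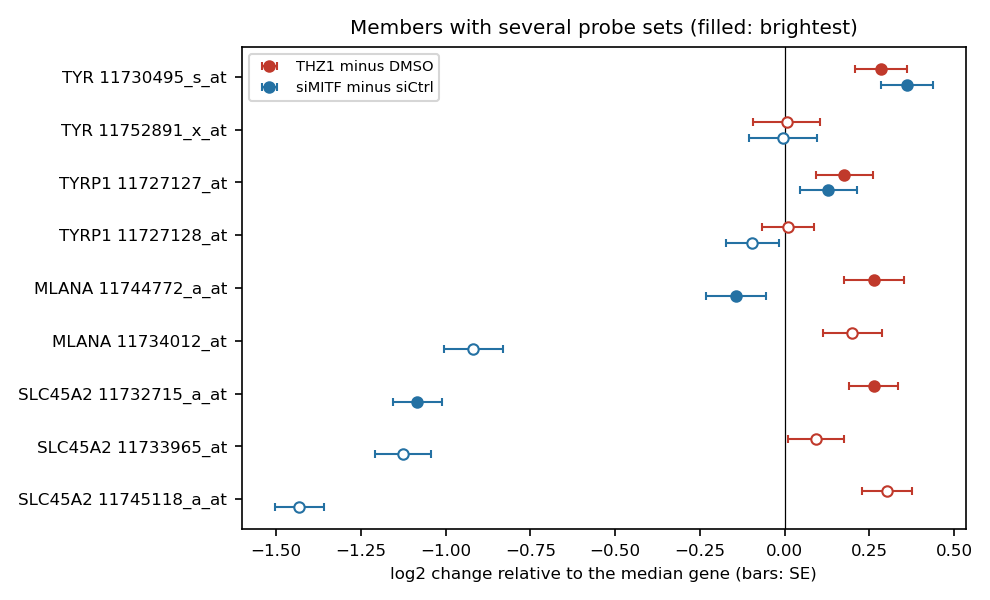
Log2 change on the centred scale (bars, SE) of the 9 probe sets of the 4 members with several, with the brightest filled. With siMITF the MLANA probe sets stand at -0.14 and -0.92, and the SLC45A2 probe sets at -1.08 to -1.43.

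Across all 4 groups, siMITF had the lowest mean signal for each of the 9 members. The siMITF arrays also had the lowest median signals over all probe sets (40.1 and 32.5). With siMITF, 89.0% of all tested genes lay below siCtrl without overlap. GPR143 averaged 416 ± 67.4 with siMITF and 1234 ± 195 with siCtrl, and 3107 ± 538 with THZ1 and 2850 ± 637 with DMSO (SD, n = 2 each), so that the siCtrl level was also below that of the drug arrays. THZ1 and DMSO, the neighbours at the top of this order, did not differ beyond their spread in deposited signal. On the centred scale GPR143 was higher with THZ1 than with DMSO by 0.33, without overlap. GPR143, after centring, was lower with siCtrl than with DMSO by 0.89, while the brightest probe sets of the other members had -0.34 to 0.06. SLC45A2 averaged 478 ± 88.0 with siMITF, below 1599 ± 190 with siCtrl, and 2623 ± 465 with THZ1, within the spread of 2502 ± 359 with DMSO. The 50 spike-in (ERCC) probe sets at or above the signal threshold had median signals of 253 to 266 on the siRNA arrays and 511 to 534 on the drug arrays. Over all 100 ERCC probe sets the medians were 27.6 to 30.7 on the siRNA arrays and 48.0 to 53.9 on the drug arrays. Differences between the siRNA and the drug arrays therefore cannot be told apart from their scaling and handling, and were not tested. Within the siRNA arrays the medians of the 50 ERCC probe sets were 253 and 266 with siMITF and 256 and 257 with siCtrl. With arrays centred on the ERCC signals, 67.6% of all tested genes were called lower with siMITF and 0.218% higher (limma, adjusted p under 0.05). The part of scaling in the siMITF values was not tested.

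Other genes of pigment cells were counted from general lists. Of 30 genes of melanosome biogenesis and transport, 19 were lower and 1 higher with siMITF on the centred scale, beside 24.7% and 19.5% of all genes. The list median was -0.38, against 0.00 over all tested genes. RAB32 (-1.21) and RAB27A (-1.13), small GTPases of melanosome cargo delivery and transport, fell, as did the vesicle fusion protein gene VAMP7 (-0.69) and HPS4 (-0.75), which acts on RAB32. With THZ1, 9 of the 30 were lower and 2 higher, beside 21.1% and 17.7% of all genes. The median was 0.05, against 0.04 over all genes. The lowest adjusted p values were those of HPS6 (-1.26), BLOC1S4 (-0.91), BLOC1S5 (-0.92) and DTNBP1 (-0.68), subunits of complexes that sort cargo to the melanosome. Of these 4, DTNBP1 also fell with siMITF (-0.57), and the other 3 had -0.02 to 0.12. On the deposited scale 28 of the 30 were lower with siMITF, beside 63.4% of all genes, and 6 with THZ1, beside 10.0%, and 0 were higher in either.

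Of 14 tested genes among 15 other melanosomal enzymes and transporters, 7 were lower and 0 higher with siMITF on the centred scale, beside 24.7% and 19.5% of all genes. The cystine transporter SLC7A11 (-0.83), which feeds pheomelanin synthesis, and its partner SLC3A2 (-0.59) were among the 7, with GGH (-0.55) and OSTM1 (-0.46). With THZ1, 2 were lower, beside 21.1% of all genes, and 4 higher, beside 17.7%. SLC36A1 (-0.58) and the melanosomal cysteine importer MFSD12 (0.36) were among these. Of 17 tested genes among 21 of melanocortin and pigment signalling, which act around MC1R, 3 were lower and 4 higher with siMITF on the centred scale, beside 24.7% and 19.5% of all genes. With THZ1, 3 were lower and 3 higher, beside 21.1% and 17.7%, so these counts were near or below the background. CREB1, the cyclic AMP response factor, fell by 1.24 with THZ1, as did the phosphodiesterase genes PDE4B (-0.74) and PDE4D (-0.54), while PRKAR2B, a protein kinase A subunit, rose by 0.72. With siMITF ADCY6 (0.66), GNAS (0.55) and ADCY9 (0.30), which make cyclic AMP or couple receptors to it, were higher and PRKACB (-0.38) was lower.

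Of 11 tested pigment cell transcription factors among 13, 2 were lower and 6 higher with siMITF on the centred scale, beside 24.7% and 19.5% of all genes. With THZ1, 4 were lower and 0 higher, beside 21.1% and 17.7%. SOX10 had 0.52 and LEF1 0.46 with siMITF, and IRF4, which acts on the TYR gene with MITF, had -0.43. With THZ1 SOX10 fell by 1.16, LEF1 by 0.67, TFAP2A by 0.55 and MITF by 0.27 (limma adjusted p = 0.0497). CDK7, the target of the drug, fell by 0.41 with THZ1 (adjusted p = 0.00148). Neither MITF (-0.47, adjusted p = 0.280) nor CDK7 (-0.60, adjusted p = 0.105) passed with THZ1 on the deposited scale, and with its own variance MITF did not pass on the centred scale (adjusted p = 0.153). On the deposited scale the same lists gave other counts with siMITF: 12 of 14 other melanosomal genes, 12 of 17 signalling genes and 4 of 11 transcription factors were lower and 0 higher, beside 63.4% of all genes lower, so the rises named here are on the centred scale. With THZ1 the counts there were 1, 3 and 3 lower and 0 higher, beside 10.0% of genes lower. Of 7 tested Schwann cell and neural crest markers, 0 were lower and 4 higher with siMITF on the centred scale, beside 24.7% and 19.5% of all genes. The 4 included ERBB3 (1.33), SOX2 (0.90) and S100B (0.90). With THZ1, 4 were lower and 1 higher, beside 21.1% and 17.7%. The deposited scale gave 1 lower and 1 higher with siMITF, beside 63.4% and 0.326%, and 2 lower with THZ1, beside 10.0%. Of the other marker lists, 3 of 8 keratinocyte, 3 of 10 fibroblast and 2 of 10 leukocyte genes with a probe set reached the signal threshold. The summed signal of the 10 fibroblast genes was 792 to 1044 with siMITF and 1621 to 1953 with siCtrl, and 2743 to 3529 with THZ1 and 2454 to 2973 with DMSO, most of it from LUM. That of the 10 leukocyte genes was 238 to 297 with siMITF and 351 to 442 with siCtrl, and 492 to 680 with THZ1 and 493 to 618 with DMSO. That of the 8 keratinocyte genes was 418 to 486 with siMITF and 639 to 750 with siCtrl, and 889 to 1262 with THZ1 and 1000 to 1379 with DMSO. Their part in the members' changes was not tested.

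The members also differed from each other in their pattern over the 8 arrays. On the centred scale, GPR143 (r = 0.97), MLANA (0.96), SLC24A5 (0.92) and SLC45A2 (0.91) followed the mean profile of the remaining members. PMEL (0.68), TYRP1 (0.35) and TYR (0.31) did so less, and MC1R (-0.50) and OCA2 (-0.83) ran against it. These are descriptions over 8 arrays that share groups and normalization. The mean profile of all 9 members was 0.12 to 0.30 on the drug arrays and -0.34 to -0.10 on the siRNA arrays. Each r therefore includes the difference between drug and siRNA arrays, which cannot be told apart from scaling and handling, and is not a measure of response alone. The tested genes most like the mean profile of all 9 members were EIF4A3, SQSTM1, DSG2, CD9 and TIMP3, each with r between 0.994 and 0.996 over the same arrays. Their changes on the centred scale ran from -0.77 for CD9 to -0.36 for TIMP3 and EIF4A3 with siMITF, and from 0.22 to 0.27 with THZ1.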

How the data were processed

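The 8 arrays measured mRNA of SK-MEL-5 cells. RNA was spiked with ERCC RNA in proportion to cell number and 100 ng was labelled per array, per the labels' protocols. The deposited values are probe set signals (intensity) on a linear scale, summarised by the authors with MAS5 (no version given) per the submitters' processing notes, and, per the series' design text, are cell number-normalized; the calculation and the annotation used are not given in the sources used here.

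Of 49495 probe sets, 45278 carried 1 gene symbol in the platform annotation, 1333 several and 2682 none, 100 were ERCC and 102 other controls. RefSeq symbols (GRCh38.p14) were assigned by gene ID to 45208 of them; 70 retained the platform's own. Signals were taken as log2(value + 16), so fold changes of dim genes are understated. Genes, by their brightest probe set, were tested if its mean log2 signal reached the percentile 40 of probe sets with 1 symbol. limma 3.58.1 in R 4.3.3 was fitted over all 8 arrays with 1 mean per group, and a Benjamini-Hochberg adjusted p under 0.05 was a call. The centred scale subtracts each array's median departure of tested genes from their means. Prior degrees of freedom were infinite on the deposited scale and 5.97 beside 4 residual on the centred scale. Precision is limited by the number of arrays. The steps were tested on simulated data.

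Members and lists were chosen with earlier results of these data known. Named genes were the members, MITF and CDK7, up to 4 genes per list with the lowest adjusted p on the centred scale, and 5 genes by likeness. The markers KRT5, KRT14, KRT10, COL1A1, DCN, LUM, PTPRC, CD68 and HLA-DRA were named in addition, after their values were seen, as were the groups by signal strength and the within-array probe set ratios. Alternatives were other pseudocounts, thresholds, probe set summaries, variances, scalings, a replicate block and leaving out each array.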

Additional observations from a re-analysis of the deposited data

How the results depend on the processing

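Of the changes of single members under an alternative, 512 kept their direction and side of the threshold, 52 lost the call, 17 gained it and 31 changed sign. On the centred scale 3 members were called lower with siMITF, beside 24.7% of all genes, and 1 higher, beside 19.5%. These 4 changes kept their sign whichever array was left out. SLC45A2, GPR143 and SLC24A5 were called lower in 17 of 17 alternatives. TYR was called higher in 14 of 17, and its change was as low as 0.14. On the deposited scale 7 were lower, beside 63.4%, and this count and that share both fell or rose with the array left out. With each gene's own variance 0 members were called there, and 0 for the difference between comparisons, against 3. In both cases 0 of all genes passed.

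For THZ1 on the deposited scale, 1 member (MC1R) was called with the mean of probe sets, beside 7.81% of all genes lower and 0.0748% higher. The replicate block also called 1, beside 12.8% and 0.109%. On the centred scale 6 members were called, beside 21.1% of all genes lower and 17.7% higher. With no threshold on signal 1 was, beside 11.5% and 2.61%, and with quantile normalization 2 were, beside 21.6% and 14.0%. Leaving out single arrays changed the member count on both scales, and also the shares of all genes. The replicate block gave 8 members for siMITF on the deposited scale, beside 70.9% of all genes lower and 0.435% higher. For the difference it gave 4 there, beside 1.53% lower and 18.1% higher. On the centred scale it gave 6 for THZ1, beside 20.9% of all genes lower and 16.2% higher. For siMITF it gave 4 there (23.4% and 19.6%), and for the difference 5 (20.1% and 20.6%). Equal replicate numbers were not taken as pairs, because the labels do not say that a number pairs arrays. Over genes, deviations of same-numbered arrays correlated at 0.112 for THZ1 and DMSO and at -0.184 for siMITF and siCtrl. This correlation cannot see a shift shared by all genes of an array. The median log2 difference of replicate 2 from replicate 1 was 0.30 with DMSO, 0.41 with THZ1, 0.27 with siCtrl and -0.30 with siMITF.

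With the mean of probe sets the THZ1 change of TYR was -0.055 on the deposited scale and the siMITF change of TYRP1 -0.021 on the centred scale. The other sign changes for siMITF were all on the centred scale. PMEL had 0.064 with a pseudocount of 1 and 0.067 with the higher threshold. With a pseudocount of 64 TYRP1 had -0.036 and OCA2 -0.061. With no threshold TYRP1 had -0.053, OCA2 -0.085 and MC1R -0.14. For THZ1 on that scale, OCA2 had -0.021 with no threshold, and quantile normalization gave -0.017 for MLANA, -0.11 for TYRP1 and -0.19 for OCA2.

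With arrays left out, THZ1 changes on the deposited scale ran from -0.11 to 0.28 for TYR, -0.19 to 0.15 for TYRP1, -0.069 to 0.20 for MLANA, -0.41 to 0.066 for OCA2, -0.12 to 0.24 for SLC45A2, -0.21 to 0.34 for SLC24A5 and -0.10 to 0.36 for GPR143. On the centred scale PMEL ran from -0.22 to 0.17 and OCA2 from -0.0060 to 0.067 with THZ1, and PMEL from -0.11 to 0.034 and MC1R from -0.041 to 0.13 with siMITF. The causes were not tested.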
